A study of Homo sapiens with 2 samples.

Results

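The metabotropic glutamate receptor genes GRM2, GRM3, GRM4, GRM5, GRM6, GRM7 and GRM8 were described in human cerebral organoids, by gene name, in 2 single-cell libraries: 7 of the 62704 genes in each table. All organoids came from H9, 1 human embryonic stem cell line, grown with a commercial kit that adds no patterning factors. The cells library pooled control organoids (CO) of days 45, 55 and 70, dissociated organoids (DISS), which were taken apart to single cells at day 45, allowed to reaggregate and sampled at days 48, 55 and 70, and constrained organoids (CONS), whose Matrigel was taken off at day 13 and which were set in 3% agarose and collected at day 55 from 3 batches. The nuclei library, a control experiment on nuclear RNA, is labelled Control/Dissociated/Embed, and by the study's account it held nuclei of day 45 CO and of single-cell suspensions made from them. Every barcode of a library carries the same sample name, so no barcode could be given a condition or an age, each library was 1 sample, and types within a library were compared without a test.

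Metabotropic glutamate receptors are G protein-coupled receptors that answer glutamate through second messengers rather than through an ion pore. GRM5, a group I receptor, acts through Gq and phospholipase C. The group II receptors GRM2 and GRM3 and the group III receptors GRM4, GRM6, GRM7 and GRM8 act through Gi/o and lower cyclic AMP. In the mature brain GRM5 is mostly postsynaptic, GRM7 and GRM8 mostly presynaptic, GRM3 is also an astrocyte receptor, and GRM6 is known from the ON bipolar cells of the retina. In the developing forebrain, radial glia are the stem cells, intermediate progenitors (IP) their dividing offspring, Cajal-Retzius (CR) cells early reelin-making neurons of the surface, the cortical hem a signalling centre at the edge of the cortex, and the choroid plexus (ChP) the epithelium that makes cerebrospinal fluid.

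Promoters are shown for the 4 receptors abundant enough to follow across types. Each runs from 250 bases before to 50 after a RefSeq transcript start on GRCh38.p14, 5′ to 3′ on the gene's strand, with every CpG dinucleotide in capitals.
GRM8, chr7:127252892-127253191, minus strand: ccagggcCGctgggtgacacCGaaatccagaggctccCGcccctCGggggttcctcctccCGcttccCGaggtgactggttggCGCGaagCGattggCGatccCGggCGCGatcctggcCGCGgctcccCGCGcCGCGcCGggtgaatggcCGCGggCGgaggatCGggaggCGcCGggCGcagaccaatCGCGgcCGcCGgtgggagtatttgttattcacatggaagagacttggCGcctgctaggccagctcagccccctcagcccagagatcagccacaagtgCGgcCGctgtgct
GRM3, chr7:86643659-86643958, plus strand: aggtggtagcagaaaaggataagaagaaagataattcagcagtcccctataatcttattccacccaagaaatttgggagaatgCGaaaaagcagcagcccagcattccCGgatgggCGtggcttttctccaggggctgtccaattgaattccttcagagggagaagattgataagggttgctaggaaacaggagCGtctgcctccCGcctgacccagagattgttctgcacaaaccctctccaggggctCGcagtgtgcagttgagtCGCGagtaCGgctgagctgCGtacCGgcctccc
GRM5, chr11:89065933-89066232, minus strand: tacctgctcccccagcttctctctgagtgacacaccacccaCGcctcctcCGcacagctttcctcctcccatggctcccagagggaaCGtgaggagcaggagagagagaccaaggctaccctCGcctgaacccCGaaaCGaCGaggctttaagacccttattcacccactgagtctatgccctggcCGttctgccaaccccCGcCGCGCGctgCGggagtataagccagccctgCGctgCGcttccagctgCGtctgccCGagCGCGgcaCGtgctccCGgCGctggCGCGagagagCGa
GRM7, chr3:6860865-6861164, plus strand: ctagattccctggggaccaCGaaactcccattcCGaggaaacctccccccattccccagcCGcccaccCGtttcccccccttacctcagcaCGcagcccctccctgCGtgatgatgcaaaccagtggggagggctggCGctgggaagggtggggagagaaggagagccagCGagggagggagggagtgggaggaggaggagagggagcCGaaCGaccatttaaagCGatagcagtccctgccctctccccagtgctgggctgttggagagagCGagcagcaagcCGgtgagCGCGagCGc
The GRM8 window held 34 CpG and was 70.0% G and C, and the GRM3 window held 11 at 52.7%. The GRM5 and GRM7 windows held 25 and 16, both at 65.0%. Over 35116 RefSeq promoters of this length the medians were 14 CpG and 58.7%, so the printed windows of GRM8, GRM5 and GRM7 stood above the median count and that of GRM3 below it. For GRM8 and GRM5 the window richest in CpG is printed. The other 3 GRM8 windows held 15, 8 and 1 CpG, and the other GRM5 window 9. Searched on both strands, TAATCC, the core bound by OTX2-type homeodomain factors, occurred in 6.36% of all promoters, and the cyclic AMP response element TGACGTCA in 1.85%. CATATG, an E-box of proneural factors, occurred in 3.04%. None of these 3 letter strings was present in the 12 windows listed for the receptors. The E-box CAGATG, present in 14.7% of promoters, was found in the GRM6 window, in 1 of 2 GRM4 windows and in 1 of 2 GRM5 windows, which is not the GRM5 window printed here.

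A barcode was used if it had over 500 genes and over 1000 transcripts, no more than 20% of them mitochondrial, which left 20178 cells (median 2615 transcripts) and 14228 nuclei (median 3890). The libraries shared 99 barcode combinations, and no barcode was repeated within one. Leiden clusters were named only from markers, as "-like" types. The cells gave 1914 radial glia-like (RG-like), 2632 dividing progenitor-like, 1135 IP-like, 1412 excitatory neuron-like (EN-like), 167 CR-like, 295 hem-like and 1408 ChP-like barcodes, and 1169 in a cluster marked by glycolysis genes. The nuclei gave 3396 RG-like, 1046 S-phase and 1205 dividing progenitor-like, 539 IP-like, 2498 EN-like, 109 CR-like, 921 hem-like and 364 ChP-like barcodes, and 968 glycolytic. No cluster passed as inhibitory neuron-like, and 49.8% of cells and 22.4% of nuclei stayed unnamed. The hem-like nuclei passed 7 hem markers and also 7 of 8 ChP markers. Levels are in CPM, the count of a gene per 1000000 transcripts, pooled over the barcodes of a type, with exact 95% Poisson intervals, which cover counting error only. The spread over sub-libraries, 8 for cells and 2 for nuclei, which split the same pools, is technical.

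GRM8 was by far the most abundant receptor transcript and GRM6 was almost absent. GRM8 gave 66.3% of the 7 genes' transcripts in the cells and 69.9% in the nuclei. It was counted 40358 times in the cells and 25305 in the nuclei, that is 257 and 351 CPM. GRM3 stood at 53.0 and 47.7 CPM, GRM5 at 33.6 and 37.3, and GRM7 at 35.3 and 61.8. The remaining receptors were rare: GRM4 reached 4.27 and 2.41 CPM, GRM2 3.34 and 1.98, and GRM6 0.712 and 0.097, the last from 112 and 7 transcripts. Divided by exon length, GRM8 led with 40.5 and 55.3 CPM per kilobase of exon, followed by GRM3 with 11.8 and 10.7. GRM7 and GRM5 were nearly level in the cells on this scale, at 3.88 and 3.86, and stood at 6.79 and 4.29 in the nuclei. GRM2, GRM4 and GRM6 were each under 1. Whether intronic reads were counted is not given in the sources used here, so exon length is only a rough divisor.

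Free RNA was read from barcodes of 10 to 100 transcripts. There the cells library held GRM8 at 299 CPM, GRM3 at 57.3, GRM7 at 47.4 and GRM5 at 37.6. The nuclei held 356, 56.7, 73.2 and 42.6. A type at or below these levels is not read as expressing the gene, though this does not show that the gene is absent there. What part of a kept barcode is free RNA was not measured, so the rule is only a cautious one. The ChP markers, summed, stood at 2216 CPM in the free RNA of the cells and 2575 in that of the nuclei. RG-like barcodes held them at 416 and 98.3, EN-like at 274 and 88.8, and S-phase nuclei at 93.0. Kept barcodes of these types thus held far less of them than the free RNA did, so the rule can pass over expression there. In the cells the rule covers GRM8 in every named type but ChP-like and hem-like, and GRM7 in every named type but CR-like and hem-like.

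**Figure D1:**
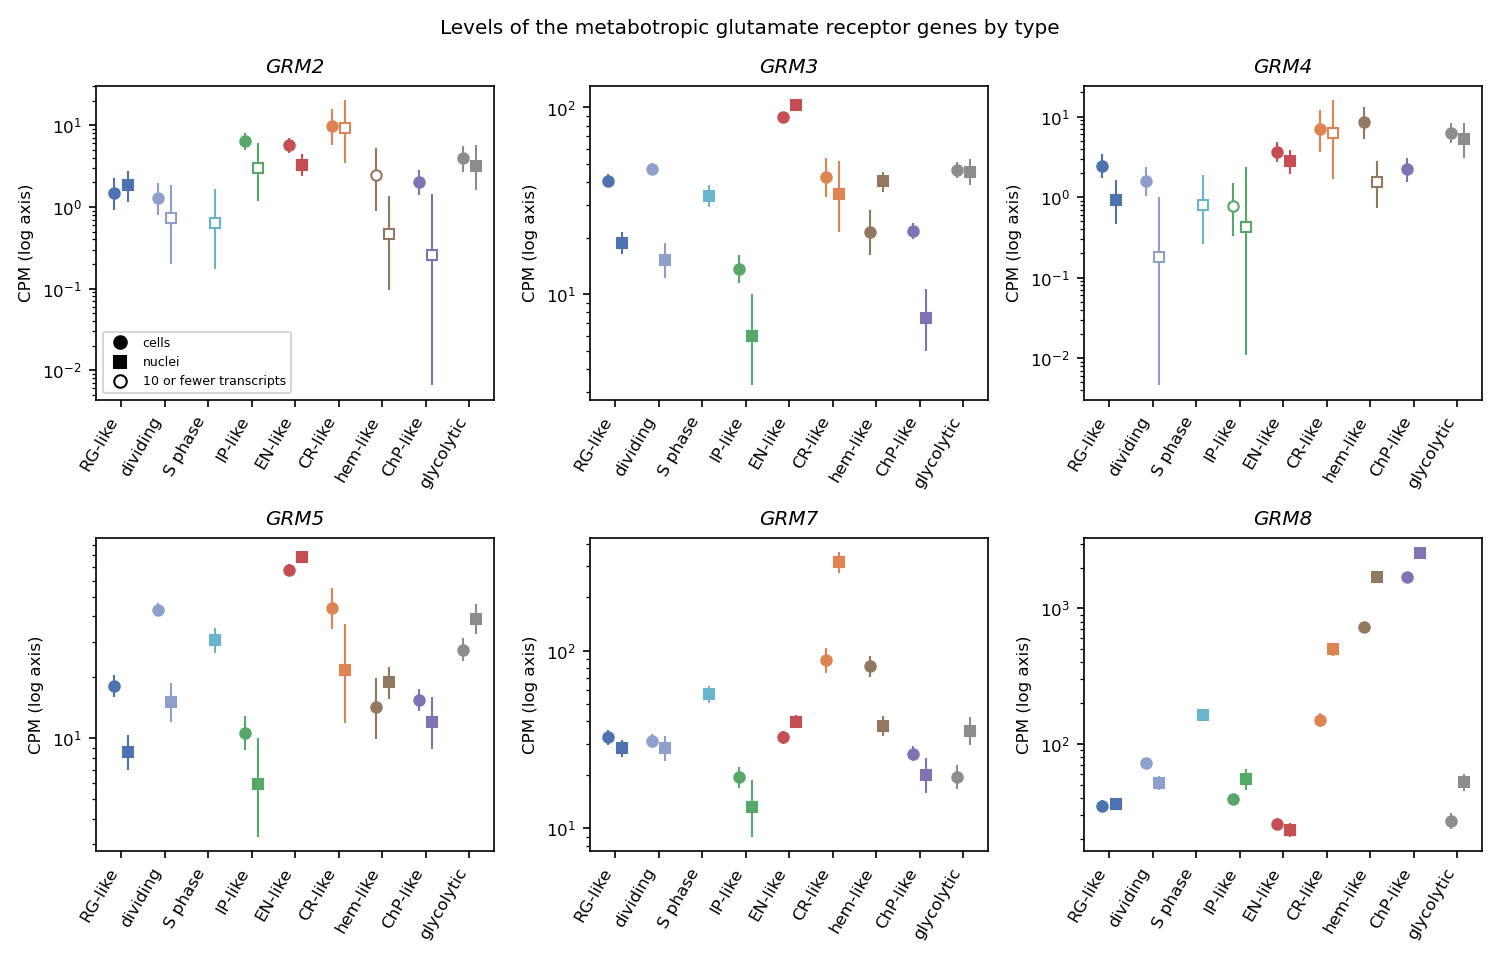
Levels of each receptor gene except GRM6 by type, in CPM on a log axis, with exact 95% Poisson intervals as bars, circles for cells, squares for nuclei and open symbols for 10 or fewer transcripts, and no symbol where none was counted. Unnamed barcodes are not shown. Among the types shown GRM8 peaks in the ChP-like type at 1696 CPM in cells and 2565 in nuclei, GRM3 and GRM5 in the EN-like type and GRM7 in the CR-like type.

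GRM8, a group III receptor that lowers cyclic AMP, stood highest in the ChP-like type, next in the hem-like type and then in CR-like barcodes. In the ChP-like cells it was at 1696 CPM (1676 to 1716), against 35.2 in RG-like, 39.1 in IP-like, 25.7 in EN-like and 72.6 in dividing cells. The 8 sub-libraries ran from 1030 to 2093 in the ChP-like cells (SD 344), and none of them came near the RG-like range of 28.0 to 46.4. In the nuclei the level was 2565 (2515 to 2616), with the sub-libraries at 2520 and 2605, against 35.9 in RG-like, 54.9 in IP-like and 23.3 in EN-like nuclei. The ChP-like over RG-like ratio was 48.2 (44.2 to 52.8, exact interval of a ratio of counts) in cells and 71.6 (65.0 to 79.0) in nuclei. It was above 1 in 20 of 20 first-round wells of the cells and 11 of 11 of the nuclei, counting wells with at least 10 barcodes of both types. Of the other receptors with more than 20 transcripts over the pair of types, none was past 2-fold between them in the cells, where 13.4% of all genes tested were called higher and 7.30% lower. In the nuclei, where 14.1% were called higher and 25.1% lower, GRM3 was lower at 0.395 of the RG-like level. GRM2 was called lower on 1 transcript, which is too rare to measure in a type.

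The GRM8 signal was broad among ChP-like barcodes. After each barcode was thinned to 1000 transcripts, 56.6% of ChP-like cells (54.0 to 59.2, exact binomial interval) and 73.4% of ChP-like nuclei (68.5 to 77.8) held a GRM8 transcript. In EN-like barcodes, a type with GRM8 below the free RNA level, the thinned shares were 3.26% and 2.48%. Without thinning the ChP-like shares were 80.2% and 96.7%, at median depths of 5842 and 9723 transcripts, and those of EN-like 20.1% and 7.93%, at 6966.5 and 4318. A ChP-like cell held a median of 5 GRM8 transcripts (quartiles 1 and 19), with 446 as the highest and 279 of 1408 cells at 0. The ChP-like nuclei held a median of 15 (quartiles 6 and 37), with 12 of 364 at 0. The barcode with most GRM8 gave 1.58% of the GRM8 transcripts of the ChP-like cells and 2.08% of those of the ChP-like nuclei, so single barcodes weighed little. ChP-like cells made up 70.2% of all GRM8 transcripts in the cells from 10.6% of all transcripts, and ChP-like and hem-like nuclei 39.5% and 43.8% of those in the nuclei from 5.39% and 9.03%.

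Within the ChP-like cells the 2 clusters differed. The larger, with 8 of 8 ChP markers, held GRM8 at 1807 CPM, and the smaller, which also passed 8 of 8, at 234, below the free RNA level. The smaller cluster held GRM3 at 84.3 and GRM5 at 64.1 CPM, against 17.1 and 11.8 in the larger. One well gave 93.8% of the smaller cluster. From 112 of the 1408 barcodes it gave 100 of the 365 GRM3 and 76 of the 259 GRM5 transcripts of the ChP-like cells. Over the 27 wells with enough ChP-like cells GRM8 ran from 257 to 4869 CPM (median 1519), and over 11 wells of the nuclei from 1111 to 4461 (median 2799). A well's condition is not known here, so these ranges mix whatever the wells held.

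The hem-like type followed with 733 CPM (700 to 768) in cells and 1701 (1669 to 1733) in nuclei, 20.9 and 47.4 times the RG-like level. The clusters that took this name differed between the libraries. That of the cells was led by PAX3 and CNTNAP5 and passed 7 hem and 2 ChP markers. That of the nuclei was led by RSPO2, PRTG, EYA4 and LMX1A and passed 7 of each. PAX3 also led a cluster of 224 nuclei that was named glycolytic. Whether the 2 hem-like clusters hold the same kind of cell was not tested. The summed ChP markers stood at 2584 CPM in hem-like cells and 11097 in hem-like nuclei, against 416 and 98.3 in RG-like. At the ChP-like ratio of GRM8 to these markers, 306 and 996 CPM of GRM8 would go with them. The border between the types in nuclei moved with the clustering: the ChP-like type held 364 nuclei as reported and 839 to 1314 under 5 of the settings tried, all 364 among them in the 4 where this was counted. The RG-like nuclei, the denominator of these ratios, numbered 3396 as reported and 767 to 1482 under 5 settings. They pooled 3 clusters. One, of 658 nuclei, had the heat shock genes HSPA1B, DNAJB1 and HSPH1 among its leading genes. Another, of 830 nuclei with 49.2% from 1 well, had EGR1, FOS and JUN. One well gave 62.4% of the hem-like cells, and without 1 well the ratio fell as low as 10.3, while in the nuclei it stayed between 44.4 and 50.5. Over the 4 wells with enough hem-like cells GRM8 ran from 80.0 to 1029 CPM, with a median of 312, near the free RNA level. In cells 16.9% of genes were called higher in hem-like over RG-like, GRM4, GRM7 and GRM8 among them, and in nuclei 11.5%, GRM3, GRM5 and GRM8 among them. GRM3 at 40.2 and GRM5 at 18.9 CPM in hem-like nuclei lay below the free RNA level, however. Lower were 7.09% and 9.74% of genes, and of the receptors GRM2 in nuclei, on 3 transcripts. CR-like barcodes held 151 CPM (133 to 171) and 498 (445 to 556), 4.30 and 13.9 times the RG-like level. The cell value lies below the free RNA level, and the nuclear value above it. The sub-libraries of the CR-like cells ran from 28.6 to 262 CPM and overlapped those of RG-like cells. Single wells of the CR-like nuclei ran from 46.6 to 1383 (median 445, 6 wells). The barcode with most GRM8 gave 10.8% of it in CR-like cells and 11.9% in CR-like nuclei.

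The 8 ChP markers (TTR, CLIC6, TMEM72, HTR2C, FOLR1, AQP1, KCNJ13 and OTX2) were also highest in the ChP-like type when summed, and this summed level was 14312 CPM in ChP-like cells and 28584 in ChP-like nuclei. Per marker transcript, GRM8 in the other types was set against its ratio in the ChP-like type. In cells that relative ratio was 0.712 in RG-like, 0.793 in EN-like, 1.13 in IP-like and 0.644 in glycolytic cells, and 1.14 in the free RNA. These types lie on both sides of the ChP-like value. The hem-like cells stood at 2.40, CR-like at 1.94 and dividing cells at 1.69. In nuclei every other type lay above the ChP-like value, with 26.0 in CR-like, 19.7 in S-phase, 7.41 in dividing, 7.14 in unnamed, 5.87 in IP-like, 4.06 in RG-like, 3.05 in glycolytic, 2.92 in EN-like and 1.71 in hem-like nuclei, and 1.54 in the free RNA. Of these nuclei only the CR-like and hem-like held GRM8 above the free RNA level. What part carried-over RNA has in these values was not tested.

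**Figure D2:**
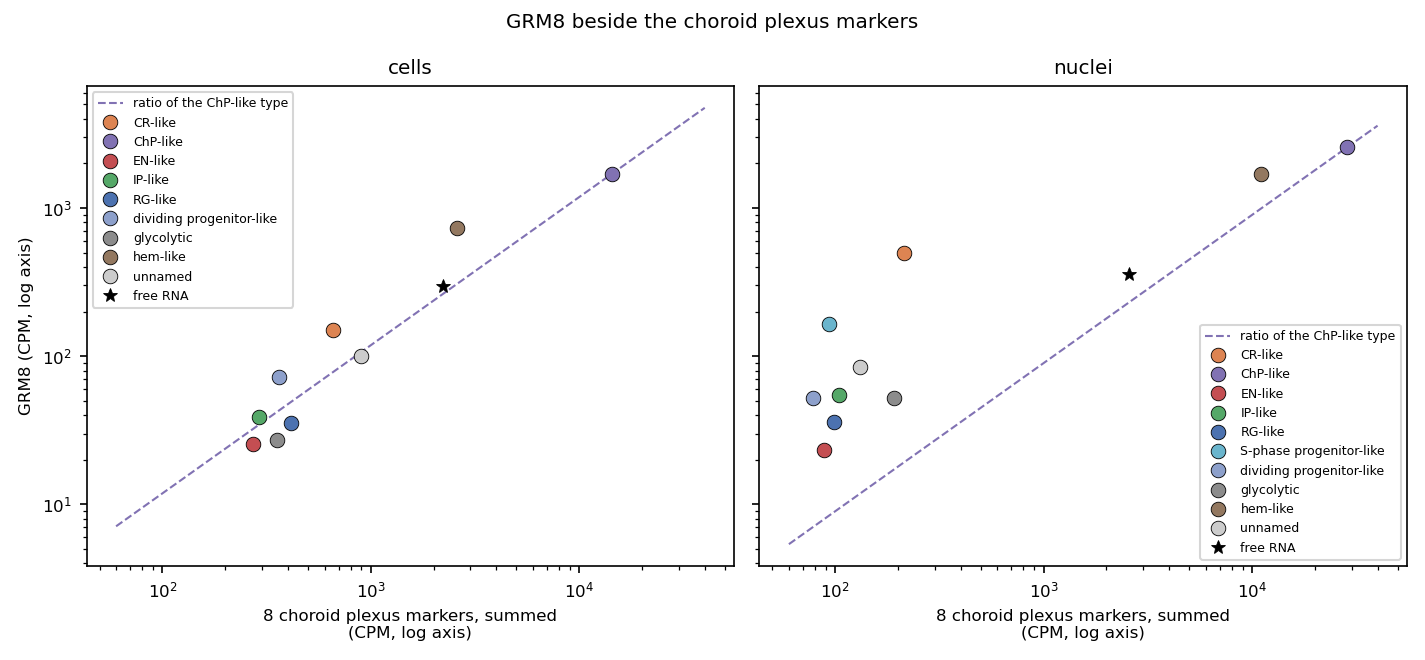
GRM8 against the summed level of 8 choroid plexus markers, both in CPM on log axes, 1 point per type and a star for the free RNA. The dashed line has the ChP-like ratio of the 2 levels. In cells RG-like, EN-like, IP-like and glycolytic types lie close to the line, and in nuclei every other type lies above it, the CR-like by 26.0-fold and the S-phase by 19.7-fold.

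GRM3, a group II receptor, was highest among the named types in EN-like barcodes. It stood at 88.9 CPM (84.2 to 93.8) in the cells, with the 8 sub-libraries between 73.8 and 106. RG-like cells held 40.6, dividing cells 47.0 and IP-like cells 13.7. In the nuclei the EN-like level was 104 (98.2 to 109), with 104 and 103 in the sub-libraries, against 18.8 in RG-like and 5.96 in IP-like nuclei. Only the EN-like type was above the free RNA among the named types of either library. The EN-like over RG-like ratio was 2.19 (1.98 to 2.42) in cells, above 1 in 18 of 25 wells, and 5.50 (4.77 to 6.36) in nuclei, above 1 in 12 of 12. Without 1 well the cell ratio ran from 1.83 to 2.45. It fell below 2-fold there and under 4 of the settings tried for the clustering and filters. Over IP-like barcodes, which lie between these types in the lineage, the ratios were 6.48 and 17.4. After thinning, 8.07% of EN-like cells and 7.69% of EN-like nuclei held a GRM3 transcript, against 3.87% and 1.56% of RG-like and 2.49% and 1.10% of ChP-like barcodes. Without thinning the EN-like shares were 33.3% and 23.9%.

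GRM5, the group I receptor, was also highest among the named types in EN-like barcodes as reported, at lower levels. In cells its standing above the free RNA did not hold under every setting. A dividing cluster of the cells and an unnamed cluster of the nuclei, both described below, held more GRM5 than the EN-like type. EN-like cells held 68.1 CPM (63.97 to 72.4), dividing cells 43.1, RG-like cells 18.1 and IP-like cells 10.7. As pooled, the dividing and CR-like cells (44.2) lay a little above the free RNA level of 37.6, and the RG-like and IP-like cells below it. The medians over single wells were 28.9 in dividing and 18.7 in CR-like cells, both below that level. The sub-libraries of the EN-like cells spread from 38.06 to 147, wider than for GRM3, but none overlapped the RG-like range of 13.0 to 23.7. One EN-like cell of 120337 transcripts held 203 GRM5 transcripts, 19.9% of all in that type. The EN-like over RG-like ratio of 3.75 (3.27 to 4.32) was above 1 in 18 of 25 wells. It became 3.03 without that barcode and as low as 2.46 without 1 well. With the barcodes of highest doublet score left out, the EN-like level was 22.7, below the free RNA level and below the 43.1 of the dividing cells as reported, and the log2 ratio was 0.43. The EN-like cluster then held 785 barcodes, 755 of them among the 1412. Whether the barcodes left out were doublets was not tested. In the nuclei the level was 78.5 (73.7 to 83.4), with 82.9 and 74.7 in the sub-libraries, and the ratio 9.14 (7.45 to 11.3), above 1 in 12 of 12 wells and between 7.92 and 9.75 without 1 well. At resolution 2 the nuclear level was 50.6 and the log2 ratio 2.42. After thinning, 4.46% of EN-like cells and 4.76% of EN-like nuclei held a GRM5 transcript, against 1.62% and 0.589% of RG-like and 1.21% and 0.275% of ChP-like barcodes.

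Of the 6 receptors with enough transcripts for the EN-like against RG-like comparison, 3 were past 2-fold higher in cells (GRM2, GRM3 and GRM5) and 3 in nuclei (GRM3, GRM4 and GRM5), and none was lower as reported. At Leiden resolution 2 and with more than 5000 transcripts required, GRM8 was past 2-fold lower in EN-like nuclei, with log2 ratios of -1.50 and -1.16. GRM2 was past 2-fold higher in nuclei at resolution 0.5 (log2 1.61) and with more than 2000 transcripts required (1.24), and GRM4 in nuclei had too few transcripts for a ratio under 8 of the settings. Of all genes tested, 8.51% were higher and 11.5% lower in cells, and 11.1% and 23.6% in nuclei. GRM7 stood at 32.5 and 32.6 CPM in the cells and at 39.9 against 28.2 in the nuclei, with all 4 values below the free RNA. Without the highest doublet scores its log2 ratio in cells was -0.71. GRM8 was lower in EN-like at 0.731 (0.639 to 0.837) and 0.649 of the RG-like level, again with both types below the free RNA.

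**Figure D3:**
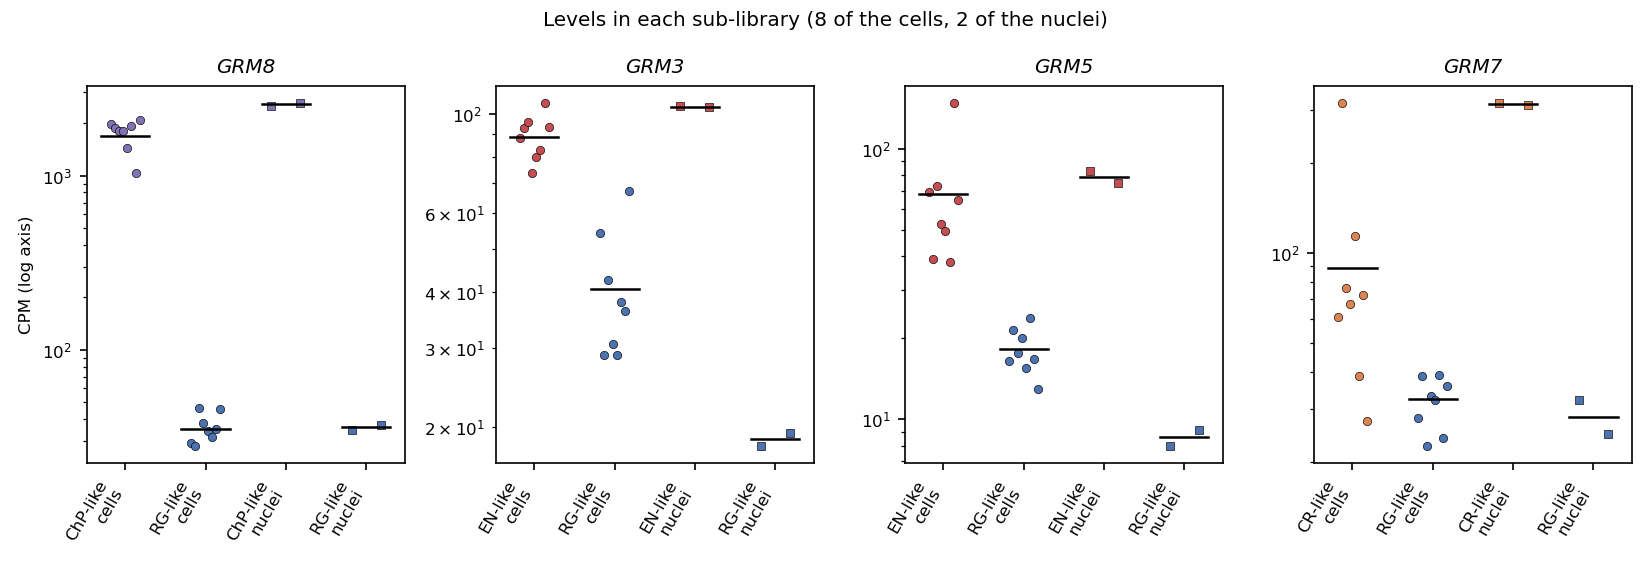
Levels of GRM8, GRM3, GRM5 and GRM7 in each sub-library in CPM on log axes, in the named type with most of the gene and in RG-like barcodes, with 8 circles for the cells, 2 squares for the nuclei and a line at the level of the whole type. The ChP-like points of GRM8 lie between 1030 and 2605, far above the RG-like points, while the CR-like points of GRM7 in cells, from 27.4 to 316, overlap them.

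EN-like nuclei formed 2 clusters that differed in these receptors. One held GRM3 at 152, GRM5 at 135 and GRM7 at 64.6 CPM, and the other, the larger with 1398 of the 2498 nuclei, 48.5, 14.1 and 12.0. This larger cluster lay below the free RNA level for all 3, so the standing of GRM3 and GRM5 above the free RNA in EN-like nuclei rests on the cluster of 1100. Dividing cells formed 4 clusters that differed too. The one led by the synaptic vesicle gene SV2C held GRM5 at 91.5 CPM, against 44.004 (10 transcripts), 17.5 and 7.73 in the others. Across clusters of 100 or more barcodes the log levels of GRM3 and GRM5 went together, with Pearson's r = 0.83 over 22 clusters of cells and r = 0.84 over 18 of nuclei. Clusters share a library and differ in depth, so these are descriptions.

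**Figure D4:**
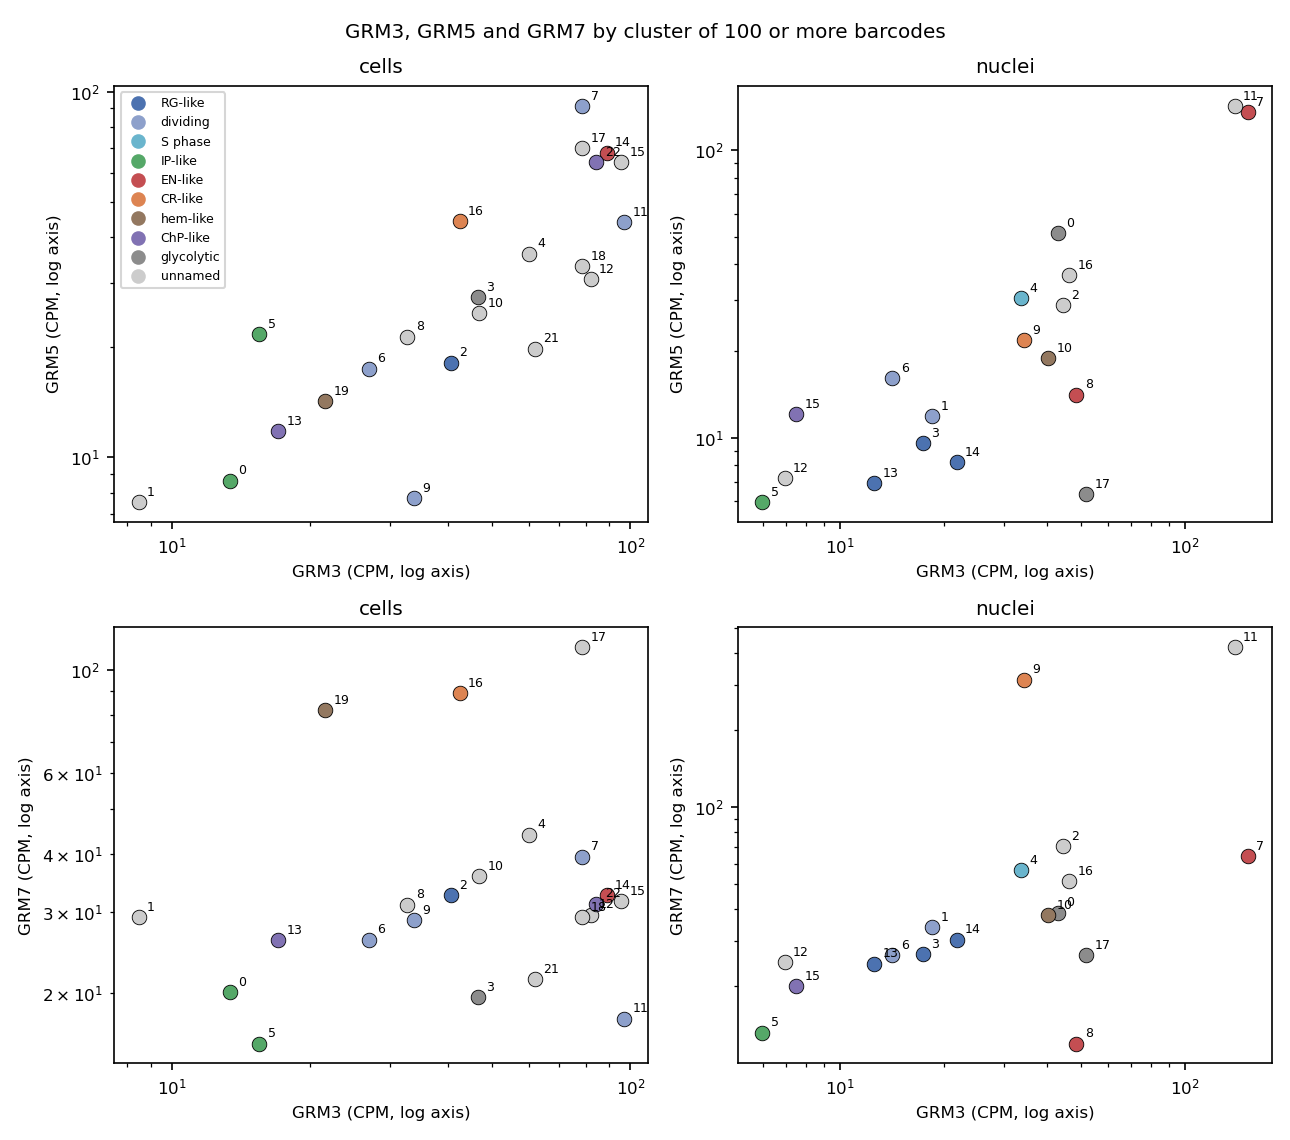
GRM5 and GRM7 against GRM3 in clusters of 100 or more barcodes, in CPM on log axes, 1 point per cluster coloured by type. GRM5 rises along with GRM3 in both libraries, and the clusters with most GRM7 are an unnamed nuclear cluster at 421 CPM and the CR-like nuclei at 314.

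GRM7, a group III receptor of the presynaptic active zone, was highest among the named types in CR-like barcodes. The nuclear level was 314 CPM (273 to 361), with the sub-libraries at 316 and 313, against 28.2 in RG-like, 39.9 in EN-like and 20.0 in ChP-like nuclei. The ratio to RG-like was 11.2 (9.33 to 13.3), above 1 in 6 of 6 wells. In the cells CR-like barcodes held 89.0 (75.5 to 104) and the hem-like 81.9 (70.9 to 94.0), against 32.6 in RG-like. One well gave 62.4% of the hem-like cells, and over the 4 wells with enough of them the level ran from 18.5 to 96.7 with a median of 35.5, below the free RNA. The CR-like over RG-like ratio in cells was 2.73 (2.26 to 3.29), above 1 in 4 of 5 wells and 6 of 8 sub-libraries. It rested on 167 barcodes, of which 1 held 30 of the 153 transcripts, and was 2.21 without that barcode. The sub-libraries ran from 27.4 to 316 and overlapped those of RG-like cells. At Leiden resolution 0.5 the level in CR-like cells was 52.3 and the log2 ratio 0.71, below 2-fold. In the nuclei single wells ran from 98.9 to 445 CPM (median 222, 6 wells), and the level from 252 to 449 over the settings tried. At resolution 0.5, with 421, the CR-like type was another population, of 835 nuclei with 80 of the 109 among them. In the cells the share of genes called higher in CR-like over RG-like was 12.0%, and GRM2, GRM4, GRM5, GRM7 and GRM8 were among them, 5 of the 6 with enough transcripts. The ratio was above 1 in only 2 of 5 wells for GRM5 and in 3 of 5 for GRM4 and GRM8, and GRM8 lay below the free RNA level. In the nuclei 13.6% were called higher, GRM2 (on 6 transcripts), GRM5, GRM7 and GRM8 among them, of which GRM5, at 21.8 CPM, lay below the free RNA level. Of all genes 10.9% were called lower in the cells and 16.1% in the nuclei. GRM3 was within 2-fold in both.

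One unnamed cluster of 746 nuclei held more GRM7 than any named type, 421 CPM, and 36.9% of all nuclear GRM7. Its leading genes included NXPH1, which binds neurexins, and the transcription factor genes EBF1 and EBF3. It passed 4 inhibitory and 5 CR markers and so received no name. It also held GRM5 at 142, GRM3 at 140, GRM8 at 158 and GRM4 at 15.8 CPM, the highest GRM4 of any nuclear cluster. In the cells an unnamed cluster of 1159 barcodes, led by RUNX1, DOCK2 and long noncoding RNAs, held the highest GRM7 at 112 CPM and 215 of the 671 GRM4 transcripts, at 29.0.

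GRM2, the other group II receptor, was rare everywhere. It stood at 5.73 CPM (4.58 to 7.08) in EN-like cells and 6.43 in IP-like cells, against 1.48 in RG-like cells from 21 transcripts. Its highest pooled level among the named types was in CR-like barcodes, at 9.89 in cells from 17 transcripts, 6.70 times the RG-like level (3.32 to 13.3), and 9.34 in nuclei from 6. In these cells 1 sub-library, with 25 of the 167 barcodes, stood at 30.6 CPM, and the others ran from 0 to 10.7. The rank above IP-like and EN-like cells was not recomputed without it. The EN-like over RG-like ratio was 3.88 (2.39 to 6.59) in cells and 1.80 (1.06 to 3.17) in nuclei, from 43 and 22 transcripts. The free RNA held it at 3.58 and 2.14, so the RG-like cells and nuclei lay below it and the EN-like above it. GRM4, a group III receptor, was at 3.66 in EN-like and 2.46 in RG-like cells, with a ratio of 1.49 (0.957 to 2.34) whose interval includes 1, and at 2.77 and 0.917 in the nuclei, from 36 and 11 transcripts, with a ratio of 3.02 (1.51 to 6.58). All 4 of these levels are below the free RNA, at 6.78 and 5.50 CPM. The pooled level of GRM4 was highest among the named types in hem-like cells, at 8.55 from 21 transcripts, but 4 of the 8 sub-libraries held none, and so did 3 of the 4 wells with enough hem-like cells, the last standing at 3.64, below the free RNA.

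GRM6 was too rare to measure in every named type but EN-like cells. It gave 11 transcripts there, just over the cut of 10, at 0.733 CPM against 1.08 in the free RNA. No other named type of the cells gave more, and all nuclei gave 7, 4 of them RG-like. No transcript was seen in CR-like cells, which allows up to 1.75 CPM at a floor of 3 counts. A cluster of 29 cells led by TPH1, with THSD7B, GRIK1, SLC6A5 and IMPG2 also among its leading genes, held 12 of the 112 transcripts. It passed 1 retinal bipolar marker and 4 CR markers and received no name. GRM2 and GRM4 gave 10 or fewer transcripts, and are likewise too rare, in the CR-like, ChP-like, hem-like, IP-like, S-phase and dividing nuclei. The same holds for GRM2 in hem-like and GRM4 in IP-like cells. In the ChP-like nuclei GRM4 was not counted at all, which allows up to 0.771 CPM.

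Between libraries, the nuclear over cell ratio of the whole-library level was 1.75 (1.68 to 1.82) for GRM7, 1.37 (1.35 to 1.39) for GRM8, 1.11 (1.06 to 1.16) for GRM5, 0.899 for GRM3, 0.593 for GRM2 and 0.565 for GRM4. GRM6 was past 2-fold lower in nuclei at 0.136 (0.054 to 0.290), on 7 transcripts there, and no other receptor was past 2-fold, where 0.559% of all genes were higher and 38.0% lower in nuclei, with a median log2 ratio of -0.65. The library types, the ages, the organoids and the shares of the types cannot be told apart here. Hem-like barcodes gave 9.03% of the nuclear and 1.56% of the cell transcripts. GRM7 stood at 28.2 CPM in RG-like nuclei against 32.6 in RG-like cells, and at 314 against 89.0 in CR-like. GRM8 stood at 35.9 against 35.2 in RG-like, and at 2565 against 1696 in ChP-like. The receptors with the highest nuclear over cell ratios are also the longest, and whether length plays a part was not tested. GRM7 spans 972 kb at chr3:6770001-7741533 and GRM8 814 kb at chr7:126438598-127253093. GRM5 spans 561 kb at chr11:88504576-89065982 and GRM3 221 kb at chr7:86643909-86864879, while GRM4 spans 137 kb, GRM6 18.6 kb and GRM2 11.5 kb (GENCODE, GRCh38). Exons make up 0.936% of GRM7 and 0.778% of GRM8, against 61.5% of GRM2. Antisense genes overlap several of them: ENSG00000270207 inside GRM7 was counted 2093 times in the cells against 5558 for GRM7, and GRM3-AS1 872 times against 8336 for GRM3. ENSG00000254035, antisense to GRM6, outnumbered its receptor, with 651 transcripts in cells against 112 and 219 in nuclei against 7. Whether the counting used strand is not given in the sources used here, so reads of such pairs may not be fully separated. Those antisense to GRM8 gave 224 transcripts or fewer each.

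Among the partners of the receptors, 28 of a list of 29 had enough transcripts in EN-like against RG-like barcodes. In cells 8 were past 2-fold higher, 3 lower and 17 within, where 8.51% of all genes were higher and 11.5% lower, with a median log2 ratio of 0.42 against -0.15 for all genes. In nuclei 11 were higher, 5 lower and 12 within, where 11.1% of all genes were higher and 23.6% lower, with a median of 0.64 against -0.34. Among those higher in both were the postsynaptic scaffolds HOMER1, which ties group I receptors to their calcium store, at 3.76 and 3.98, and SHANK1 at 4.80 and 5.36. ELFN2, a transsynaptic partner of group III receptors, was at 13.7 and 31.3. On the Gi/o side GNAI1 was at 2.45 and 2.93, GNAO1 at 2.37 and 2.16, and the regulator RGS7 at 2.38 and 4.18. The adenylyl cyclase ADCY5 was at 2.66 and 4.41. Lower in both were the phospholipase PLCB4 at 0.374 and 0.310, the calcium channel ITPR1 at 0.450 and 0.171, and ADCY2 at 0.147 and 0.077. The signalling genes thus did not all move one way between the 2 types, with cyclases on both sides. In ChP-like over RG-like 6 were higher and 5 lower in cells, and 8 and 8 in nuclei, where of all genes 13.4% and 14.1% were higher and 7.30% and 25.1% lower. ADCY8, a calcium-stimulated cyclase, stood there at 49.4 against 5.06 CPM in cells and 133 against 2.58 in nuclei, and ITPR1 at 173 against 34.9 and 326 against 56.8. In the cells ADCY8 was a leading gene of the smaller ChP-like cluster, of 112 barcodes, in which GRM8 lay below the free RNA level. It was not among the leading genes of the larger ChP-like cluster. In CR-like over RG-like 7 and 10 were higher and 0 and 3 lower, where of all genes 12.0% and 13.6% were higher and 10.9% and 16.1% lower. ELFN1, another partner of group III receptors, stood there at 64.6 against 15.2 and 123 against 12.0. In hem-like over RG-like 6 and 7 were higher and 5 and 0 lower, against 16.9% and 11.5% higher and 7.09% and 9.74% lower over all genes. The rule allowed 8 names, and PLCB4, ITPR1, ADCY2, ADCY8 and ELFN1 were added after their values were seen.

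**Figure D5:**
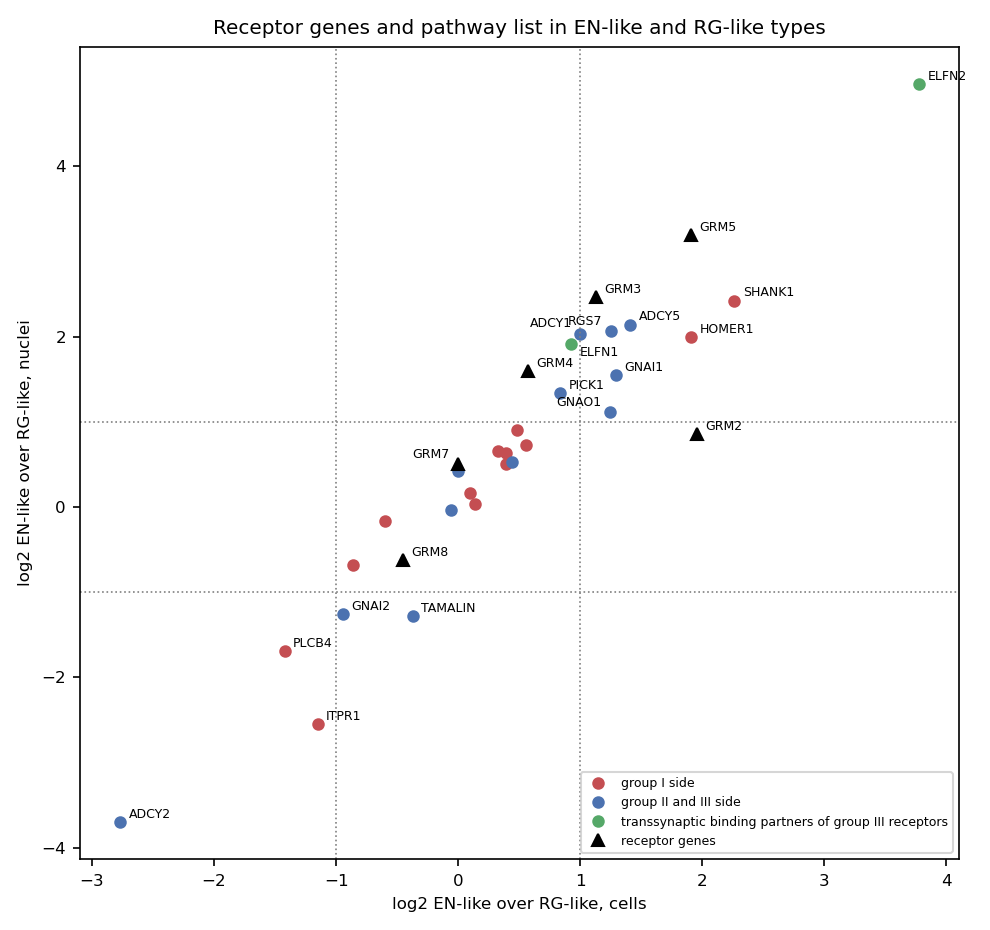
Log2 ratio of EN-like over RG-like levels in cells (x axis) and nuclei (y axis) for the receptor genes (triangles) and genes of the pathway list (points coloured by role). ELFN2 is the highest in both, ADCY2 the lowest, and GRM3 and GRM5 lie on the higher side in both.

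The genes whose cluster pattern was most like each receptor's were found by the lower of the 2 Pearson r values over log levels, 22 clusters of cells and 18 of nuclei, among 7533 genes, with the receptor genes themselves left out. Only genes at 20 or more CPM in both libraries were ranked. Had receptor genes been ranked too, GRM3 and GRM5 would each have come first for the other (0.83 and 0.84). GRM4 reached 0.79 and 0.80 with GRM7, but at 4.27 and 2.41 CPM it lay below that cut. For GRM8 the most alike genes were EYA4, a transcriptional cofactor (0.94 and 0.92), ADAMTS17 (0.92 and 0.91), LGI1 (0.91 and 0.90), the hem marker LMX1A (0.92 and 0.90) and SGCD (0.90 and 0.92). For GRM3 the first of the other genes was GRIN2B, an NMDA receptor subunit (0.77 and 0.84), followed by DAB1, LMO3, HS3ST4 and SYBU. For GRM5 they were GALNT13 (0.70 and 0.78), DAB1, LMO3, DMD and DGKI, so DAB1, of the reelin pathway, and LMO3 stood on both lists. For GRM7 they were THSD7B (0.81 and 0.86), ASIC2, TENM1, MGAT4C and NELL1. The values for GRM5 were the lowest of the 4, and those for GRM8 the highest.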

How the data were processed

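Per the authors' methods, split-pool barcoded cells and nuclei were sequenced in 8 and 2 sub-libraries, demultiplexed allowing 1 mismatch, and aligned and counted with the split-pipe software on GRCh38. The authors deposited unfiltered counts of transcripts (molecular identifiers) per gene and barcode, with no normalization. The authors' doublet and free RNA corrections were not applied here. Whether counting used strand is not given in the sources used here.

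The members and the marker and pathway lists were chosen with earlier results of these data known, and the thresholds for naming a cluster were set with the data seen. Barcodes needed over 500 genes and over 1000 transcripts, with a mitochondrial share up to 20%. Each library was clustered separately with scanpy 1.11.5 (2000 variable genes without the receptor genes, 30 components, 15 neighbours, Leiden resolution 1). A cluster could take a name when at least 75% of that name's markers, and at least 3, stood 1.5-fold or more above the rest of the library, with a median log2 excess of at least 0.8 over the list. Where several names passed, the one with most markers among the cluster's leading genes was taken. Ties went to dividing or S phase, then to the larger share of markers. No name was given where another list had more leading genes, or to a shallow cluster with no such marker among them. The reported results had no doublet step. Scrublet was run only for an alternative and gave no doublet call, so that alternative leaves out the barcodes with the highest scores (1009 cells and 427 nuclei). Genes with more than 20 transcripts in a pair of types were counted as called past 2-fold, with no test, since each library is 1 sample. Levels pool the barcodes of a type, so 1 deep barcode can weigh heavily. Intervals are exact Poisson, exact binomial (Clopper-Pearson) or exact conditional for ratios, at 95%. The pooled data held 157306492 and 72162726 transcripts in the kept barcodes. By rule, the genes named beyond the receptors are those of the pathway list past 2-fold in both libraries, at most 8, and the 5 genes most like each receptor across clusters. Markers, leading genes of clusters, overlapping genes and 5 further pathway genes were named after their values were seen. One gene of the pathway list enters the counts and is not reported here by name. The fold and interval code was tested on simulated counts.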

Additional observations from a re-analysis of the deposited data

How the results depend on the processing

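No paired analysis was possible because each library is 1 sample and its barcodes carry no replicate number. Ratios were recomputed for EN-like over RG-like, GRM8 ChP-like over RG-like, GRM7 CR-like over RG-like and nuclei over cells, and no called direction reversed among these. The other CR-like, ChP-like and hem-like calls were not recomputed. Of 362 values recomputed for 42 results, 243 stayed within the counting interval of the reported value, or within a fixed fold for counts of pathway genes. The other 119 lay outside it, and the causes were not tested. The spread between sub-libraries was not used for this count. Weighting barcodes equally, requiring more than 5000 transcripts and leaving out clusters mostly of 1 well were chosen after seeing the data. GRM8 kept a log2 ChP-like over RG-like ratio of 5.02 to 5.71 in cells and 5.73 to 6.56 in nuclei under every setting run. GRM7 CR-like over RG-like ran from 0.71 to 1.75 in cells, below 2-fold at resolution 0.5, and from 3.11 to 3.88 in nuclei. GRM3 EN-like over RG-like ran from 0.80 to 1.36 in cells and 1.83 to 2.49 in nuclei, and GRM5 from 0.43 to 2.28 and 2.42 to 3.41. GRM2 and GRM4 in nuclei gave no ratio under several settings that left 10 or fewer transcripts in a type. From 7 to 9 pathway genes were higher in EN-like cells and from 10 to 12 in nuclei. Few transcripts were counted for GRM2, GRM4 and GRM6, and the cause was not tested.

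At Leiden resolution 0.5, levels in CPM were GRM3 EN-like cells 79.0, GRM5 EN-like cells 50.5, GRM7 CR-like cells 52.3, GRM7 CR-like nuclei 421, GRM8 ChP-like cells 1567 and GRM8 ChP-like nuclei 1987, and log2 EN-like over RG-like ratios were GRM3 cells 0.96, GRM5 cells 1.40, GRM8 cells -0.72 and GRM8 nuclei -0.38, and 1 pathway gene was lower in EN-like cells. At resolution 2, levels in CPM were GRM3 EN-like nuclei 112, GRM5 EN-like cells 73.1, GRM5 EN-like nuclei 50.6, GRM8 ChP-like cells 1506 and GRM8 ChP-like nuclei 2154, and log2 EN-like over RG-like ratios were GRM3 cells 1.36, GRM5 cells 2.28, GRM5 nuclei 2.42, GRM7 cells -0.44 and GRM8 nuclei -1.50, and 5 pathway genes were lower in EN-like cells. With more than 700 transcripts required, levels in CPM were GRM3 EN-like cells 77.4, GRM5 EN-like cells 48.7, GRM7 CR-like cells 73.8, GRM7 CR-like nuclei 381, GRM8 ChP-like cells 1331 and GRM8 ChP-like nuclei 2305, and log2 EN-like over RG-like ratios were GRM3 cells 0.91, GRM3 nuclei 1.83, GRM5 cells 1.38 and GRM7 nuclei 0.22, and 1 pathway gene was lower in EN-like cells. Without the highest doublet scores, levels in CPM were GRM3 EN-like cells 59.8, GRM5 EN-like cells 22.7, GRM7 CR-like nuclei 449, GRM8 ChP-like cells 1718 and GRM8 ChP-like nuclei 2632, and log2 EN-like over RG-like ratios were GRM3 cells 0.80, GRM3 nuclei 2.23, GRM5 cells 0.43, GRM7 cells -0.71, GRM7 nuclei 0.30 and GRM8 nuclei -0.99. With more than 2000 required, levels in CPM were GRM3 EN-like cells 75, GRM3 EN-like nuclei 113, GRM5 EN-like cells 54.2, GRM5 EN-like nuclei 86.1 and GRM7 CR-like nuclei 368, and log2 EN-like over RG-like ratios were GRM3 cells 0.97, GRM7 cells -0.36 and GRM8 cells -0.23. With each barcode weighted equally, levels in CPM were GRM3 EN-like nuclei 90.7, GRM5 EN-like cells 59.8, GRM5 EN-like nuclei 62.7, GRM7 CR-like cells 119, GRM7 CR-like nuclei 385, GRM8 ChP-like cells 1573 and GRM8 ChP-like nuclei 2500.2, and the log2 EN-like over RG-like ratio was GRM8 cells -0.69. With more than 5000 required, levels in CPM were GRM3 EN-like nuclei 119, GRM5 EN-like nuclei 97.4, GRM7 CR-like nuclei 252 and GRM8 ChP-like cells 1738, and the log2 EN-like over RG-like ratio was GRM8 nuclei -1.16. With the receptor genes among the variable genes, levels in CPM were GRM5 EN-like cells 53.8 and GRM8 ChP-like nuclei 2475, and the log2 EN-like over RG-like ratio was GRM5 cells 1.64. With another random seed, levels in CPM were GRM7 CR-like nuclei 372, GRM8 ChP-like cells 1723 and GRM8 ChP-like nuclei 2359.9, and log2 EN-like over RG-like ratios were GRM3 nuclei 2.12 and GRM8 nuclei -0.90. With mitochondrial transcripts out of the total, the level in CPM was GRM8 ChP-like cells 1828, and the GRM8 nuclear over cell ratio was 1.33. Without clusters mostly of 1 well, the level in CPM was GRM8 ChP-like cells 1807. With at most 10% mitochondrial transcripts, the level in CPM was GRM8 ChP-like cells 1617, and log2 EN-like over RG-like ratios were GRM3 cells 1.35, GRM3 nuclei 2.17, GRM8 cells -0.69 and GRM8 nuclei -0.14, and the GRM8 nuclear over cell ratio was 1.61. Thinned to 2000 transcripts, shares of barcodes were GRM3 EN-like cells 13.6%, GRM3 EN-like nuclei 13.7%, GRM5 EN-like cells 6.86%, GRM5 EN-like nuclei 8.59%, GRM7 CR-like nuclei 27.0%, GRM8 ChP-like cells 69.8% and GRM8 ChP-like nuclei 85.9%. Without thinning, shares of barcodes were GRM3 EN-like cells 33.3%, GRM3 EN-like nuclei 23.9%, GRM5 EN-like cells 18.4%, GRM5 EN-like nuclei 15.3%, GRM7 CR-like cells 28.1%, GRM7 CR-like nuclei 34.9%, GRM8 ChP-like cells 80.2% and GRM8 ChP-like nuclei 96.7%.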

Other observations

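A few clusters outside the named types held high levels of single receptors. In the cells, 33 barcodes, all from 1 well, formed a cluster with GRM8 at 3065 CPM, above the ChP-like level. Another unnamed cluster of the cells, led by TTR and HTR2C, held GRM8 at 381, a little above the free RNA level of 299. The 29 cells led by TPH1 held GRM8 at 403 CPM and 12 GRM6 transcripts, 52.5 CPM. The markers fixed for retinal bipolar cells, in which GRM6 is known, were near 0 in most clusters, and TRPM1, the channel that GRM6 controls in those cells, was counted most in ChP-like barcodes, 21 times in cells and 43 times in nuclei.

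Over first-round wells with at least 10 barcodes of a type, GRM3 in EN-like cells ran from 19.0 to 163 CPM over 36 wells (median 72.7), with no well at 0, and GRM5 from 0 to 205 (median 50.8). In RG-like cells, over 29 wells, GRM3 ran from 0 to 163 (median 37.6) and GRM5 from 0 to 163 (median 18.1), so single wells of the 2 types overlap for both genes.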
